A study of Mus musculus with 4 samples.

Results

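The comparison set the liver library of mice given conjugated linoleic acid (CLA) together with GW6471 against the liver library of Vehicle mice, and asked how far both treatments together took the transcriptome from the control diet. It used 2 of the 4 libraries of the study, 1 per group, and 10355 of the 15500 genes listed, namely those with a mean of at least 1 FPKM over the 4 libraries. FPKM is the number of fragments divided by transcript length and by the mapped fragments of the library, so levels are given per length. The Vehicle group received chow with linoleic acid at 1.5% w/w, with vehicle injections where appropriate. The CLA+GW6471 group received CLA at 1.5% w/w for 28 days, as a mixture of the c9,t11 and t10,c12 isomers in equal amounts, together with intraperitoneal GW6471, an antagonist of the nuclear receptor PPARα, for which a daily dose of 20 mg per kg was stated. The other libraries came from mice given CLA alone or GW6471 with the linoleic acid diet. All were wild-type male Kunming mice, an outbred strain, bought at 5 weeks of age and acclimated for 1 week. The labels give 6 mice per group and do not say whether a library was a pool or a single animal, and the study's methods give a sampling time of zeitgeber time 8 but do not describe the RNA-seq groups with GW6471.

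PPARα is a fatty acid sensor of the liver. With its partner RXR it binds response elements built from direct repeats of AGGTCA, and it activates genes for fatty acid uptake, for the carnitine shuttle and for beta-oxidation in mitochondria and peroxisomes. In fasted liver it also drives ketone body synthesis, and its target Pdk4 restrains glucose oxidation.

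With 1 library per group there was no replicate error, and no test between the groups could be made. A gene is called higher or lower here when its ratio passed 1.5-fold or 2-fold after 0.1 was added to both FPKM. Where a transcript length was known, a 95% counting interval of the ratio (exact Clopper-Pearson) was derived from depths estimated at 18850000 reads in Vehicle and 19295000 reads in CLA+GW6471. These intervals cover counting error only and not the difference between animals.

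The table itself went partly against the liver label. Of the 19 hepatocyte markers listed, 12 were under 1 FPKM on average, among them the transthyretin gene Ttr at 0.04 FPKM in both Vehicle and CLA+GW6471 and the urea cycle gene Cps1 at 0.01 and 0.02 FPKM. Albumin was present, at 679.53 FPKM in Vehicle and 620.17 FPKM in CLA+GW6471. Some markers of other liver cells were near 0 in Vehicle too. The endothelial genes Stab2 and Cdh5 had 0 FPKM, and the macrophage genes Cd5l and Emr1 had 0 and 0.05 FPKM. Others were not, with the macrophage markers Cd14 and Cd68 at 23.68 and 23.43 FPKM and the fibroblast marker Dcn at 1287.08. The mitosis genes Top2a and Mki67 had 42.17 and 24.28 FPKM in Vehicle. The gene with the highest level of the whole table was Sprr1a, a cornified envelope protein of squamous epithelia, with 19046 FPKM in Vehicle, 15810 with CLA, 18795 with GW6471 and 26116 with both. It took 3.72% of the summed FPKM in Vehicle and 5.02% in CLA+GW6471. The summed level of the hepatocyte markers was 2322 FPKM in Vehicle, 4170 with CLA, 3278 with GW6471 and 2165 with both, so it differed less between the libraries compared here than between Vehicle and either single treatment. Most of this sum was Apoe and Alb, at 1321.2 and 679.53 FPKM in Vehicle. In tissue RNA, fewer cells of a type and less RNA per cell cannot be told apart.

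The promoters of the 3 genes most above and the 3 most below Vehicle at a mean of at least 5 FPKM that had an entry are shown first, since these genes lead the comparison at that level. Each sequence is the 250 bases before the annotated start in RefSeq (GRCm38.p6), 5′ to 3′ in the direction of the gene, with AGGTCA (the repeat unit of PPAR elements), CCAATCA (a box bound by the factor NF-Y) and ACGTG (a part of the E-box) in capitals on either strand. Pdk4 lies on the minus strand at chr6:5496279-5496528, Acot1 on the plus strand at chr12:84009252-84009501 and Cpt1a on the plus strand at chr19:3323051-3323300. Slco1a5 lies on the minus strand at chr6:142322982-142323231, Akr1c18 on the minus strand at chr13:4150647-4150896 and Apoc2 on the minus strand at chr7:19677942-19678191.
Pdk4: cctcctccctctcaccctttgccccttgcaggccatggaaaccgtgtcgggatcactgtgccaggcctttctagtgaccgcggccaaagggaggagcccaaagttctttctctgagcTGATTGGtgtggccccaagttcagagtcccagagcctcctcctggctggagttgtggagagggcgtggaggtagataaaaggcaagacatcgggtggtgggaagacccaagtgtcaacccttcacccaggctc
Acot1: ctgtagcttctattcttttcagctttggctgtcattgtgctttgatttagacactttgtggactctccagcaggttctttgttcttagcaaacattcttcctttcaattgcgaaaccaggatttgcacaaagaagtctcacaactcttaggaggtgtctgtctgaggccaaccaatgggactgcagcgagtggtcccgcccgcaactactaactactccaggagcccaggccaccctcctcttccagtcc
Cpt1a: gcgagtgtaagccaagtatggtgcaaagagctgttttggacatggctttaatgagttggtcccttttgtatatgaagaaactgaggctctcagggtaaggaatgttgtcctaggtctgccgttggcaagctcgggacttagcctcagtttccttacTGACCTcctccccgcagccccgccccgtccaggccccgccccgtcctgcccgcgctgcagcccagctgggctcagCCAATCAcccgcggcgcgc
Slco1a5: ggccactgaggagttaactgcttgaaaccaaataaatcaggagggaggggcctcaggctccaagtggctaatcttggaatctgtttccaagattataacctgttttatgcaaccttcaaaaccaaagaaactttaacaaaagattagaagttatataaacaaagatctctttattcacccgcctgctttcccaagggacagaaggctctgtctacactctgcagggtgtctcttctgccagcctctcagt
Akr1c18: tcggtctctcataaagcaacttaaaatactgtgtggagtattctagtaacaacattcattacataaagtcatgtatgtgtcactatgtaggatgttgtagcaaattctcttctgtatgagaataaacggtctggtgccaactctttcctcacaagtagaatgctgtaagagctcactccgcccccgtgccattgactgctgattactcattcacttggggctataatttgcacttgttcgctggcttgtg
Apoc2: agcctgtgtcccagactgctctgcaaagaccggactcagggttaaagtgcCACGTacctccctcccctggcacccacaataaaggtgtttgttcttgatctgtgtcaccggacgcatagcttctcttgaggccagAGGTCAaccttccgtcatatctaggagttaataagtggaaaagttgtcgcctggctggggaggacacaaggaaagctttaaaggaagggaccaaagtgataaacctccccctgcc

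Of the other libraries, Vehicle was the closest to CLA+GW6471. Over the 10355 genes, the SD of the log2 ratio between CLA+GW6471 and Vehicle was 0.199, the lowest of the 6 pairs of libraries. The same SD was 0.271 between GW6471 and CLA, 0.305 between GW6471 and Vehicle, and 0.329 between CLA+GW6471 and GW6471. It was 0.406 between CLA and Vehicle and 0.460 between CLA+GW6471 and CLA, the highest of the 6. The 2 libraries of CLA-fed mice were thus the pair farthest apart. The median absolute log2 ratio to Vehicle was 0.09 for CLA+GW6471, and 89.7% of the genes lay within 1.2-fold of their Vehicle level.

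**Figure D1:**
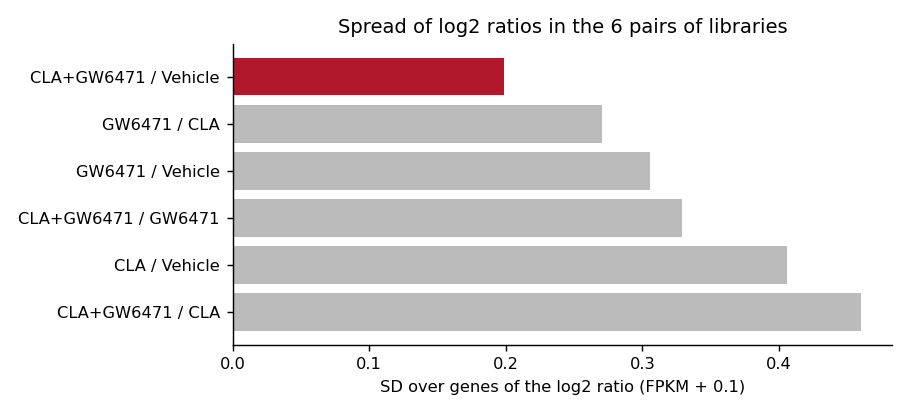
Spread of the log2 ratios (SD over 10355 genes, horizontal axis, FPKM with 0.1 added) in each of the 6 pairs of libraries. The bar of CLA+GW6471 against Vehicle, in red, is the shortest at 0.199, and that of CLA+GW6471 against CLA is the longest at 0.460.

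Few genes passed the folds. At 1.5-fold, 53 genes (0.512% of those compared) were higher and 65 genes (0.628%) were lower in CLA+GW6471. At 2-fold, 17 genes (0.164%) were higher and 14 (0.135%) were lower. With 1 in place of 0.1 added to the FPKM, 28 were higher and 18 lower at 1.5-fold, and 11 higher and 0 lower at 2-fold, so the balance of higher and lower genes depended on the weakly expressed genes. The single treatments, read against the same Vehicle library, had more genes past the folds. CLA had 759 genes higher (7.33%) and 513 lower (4.95%) at 1.5-fold, and 185 higher (1.79%) and 77 lower (0.744%) at 2-fold. GW6471 had 341 higher (3.29%) and 217 lower (2.1%) at 1.5-fold, and 58 higher (0.56%) and 32 lower (0.309%) at 2-fold.

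Of the 17 genes at least 2-fold higher, 8 had a mean of at least 5 FPKM over the 4 libraries, and of the 14 at least 2-fold lower only Slco1a5 did. That mean includes the libraries in which a gene is high, and Pdk4, Acot1, Abca1 and Slc25a20 were under 5 FPKM in Vehicle. Of the genes with a known length, the counting interval left out equality for 39 of 45 genes higher at 1.5-fold and for 55 of 63 genes lower. Over all 9762 genes with a length it did so for 32.5%, most of them under 1.5-fold. At the 1.5-fold limit, Prr5 and Pmp22 lay just inside on the higher side at log2 ratios of 0.59 and 0.60, and Irs2 and Etfdh just outside at 0.58 and 0.57. At the 2-fold limit, Slc25a20 and Abca1 lay just inside at 1.0 and 1.01, and Acot2 and Prickle1 just outside at 0.98 and 0.95.

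**Figure D2:**
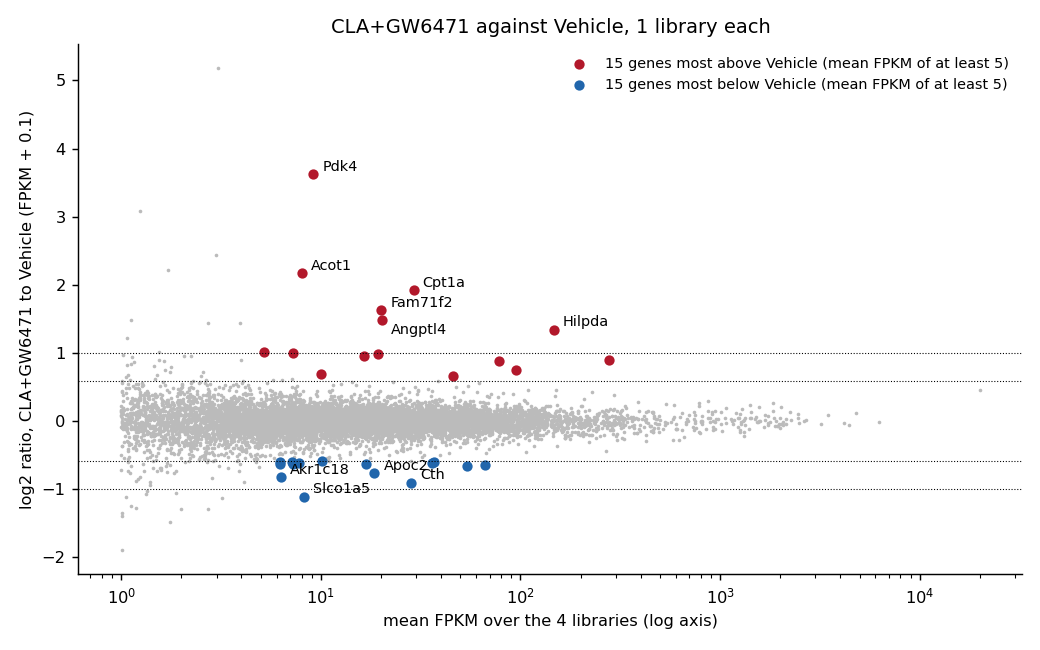
Log2 ratio of CLA+GW6471 to Vehicle (vertical axis, FPKM with 0.1 added) against the mean FPKM over the 4 libraries (horizontal log axis), 1 point per gene, with dotted lines at 1.5-fold and 2-fold. Red points are the 15 genes most above Vehicle and blue points the 15 most below it, at a mean of at least 5 FPKM, and Pdk4 and Acot1 stand highest among them at 3.62 and 2.17.

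At a mean of at least 5 FPKM, the 3 largest ratios above Vehicle were those of Pdk4, Acot1 and Cpt1a, and larger ratios among weaker genes are given below. Pdk4, the kinase that inhibits pyruvate dehydrogenase, had 1.17 FPKM in Vehicle, 1.87 with CLA, 17.99 with GW6471 and 15.56 with both (that is, in CLA+GW6471), a log2 ratio of CLA+GW6471 to Vehicle of 3.62 (counting interval 3.40 to 4.08). Both libraries labelled with GW6471 were far above both without it. Cpt1a, the carnitine palmitoyltransferase that sets the rate of long-chain fatty acid entry into mitochondria, had 11.34, 15.98, 46.04 and 43.13 FPKM in the same order, a log2 ratio of 1.92 (1.82 to 2.03). Its carnitine shuttle partner Slc25a20, the carnitine-acylcarnitine translocase, had 4.12, 6.61, 9.83 and 8.34 FPKM, a log2 ratio of 1.0 (0.72 to 1.33). For these 3 genes the GW6471 library was slightly above the CLA+GW6471 library, and CLA stood between Vehicle and both.

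The acyl-CoA thioesterases, which release free fatty acids from CoA, followed. Acot1 had 2.34 FPKM in Vehicle, 4.01 with CLA, 15.04 with GW6471 and 10.86 with both, a log2 ratio of 2.17 (1.84 to 2.61). Acot2 had 15.44, 7.41, 23.75 and 30.6 FPKM, a log2 ratio of 0.98 (0.85 to 1.13). Acot1 and Acot2 are close paralogs, so the split of reads between them is uncertain. Acadl, the long-chain acyl-CoA dehydrogenase, had 63.29, 81.75, 130.16 and 106.79 FPKM, a log2 ratio of 0.75 (0.68 to 0.83).

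Genes of lipid droplets and of plasma triglyceride handling were also among the 15 genes most above Vehicle. Hilpda, a droplet protein that inhibits adipose triglyceride lipase, had 90.15 FPKM in Vehicle, 80.45 with CLA, 187.82 with GW6471 and 227.47 with both, a log2 ratio of 1.33. Plin2, the droplet coat protein, had 211.71, 181.74, 318.4 and 395.74 FPKM, a log2 ratio of 0.90. Angptl4, a secreted inhibitor of lipoprotein lipase, had 11.47, 10.15, 26.76 and 32.39 FPKM, a log2 ratio of 1.49 (1.37 to 1.63). In these 3 genes CLA was the lowest library and CLA+GW6471 the highest. Abca1, the cholesterol efflux transporter, had 3.55, 3.82, 6.22 and 7.25 FPKM, a log2 ratio of 1.01 (0.90 to 1.16).

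The remaining 5 of the 15 genes most above Vehicle were Fam71f2 (log2 ratio 1.63), the planar polarity gene Prickle1 (0.95), the spermine oxidase Smox (0.88), the tubulin Tuba8 (0.69) and Plat, the tissue plasminogen activator (0.66). In all 15, both libraries labelled with GW6471 exceeded both libraries without it, an order that 9.88% of all genes compared had. The choice of these genes fixed that CLA+GW6471 was above Vehicle, and the limit on the mean, which includes the GW6471 library, favoured genes high there (Abca1 passed it in this way), so the count is a description. CLA+GW6471 held the highest of the 4 values in 10 of the 15.

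**Figure D3:**
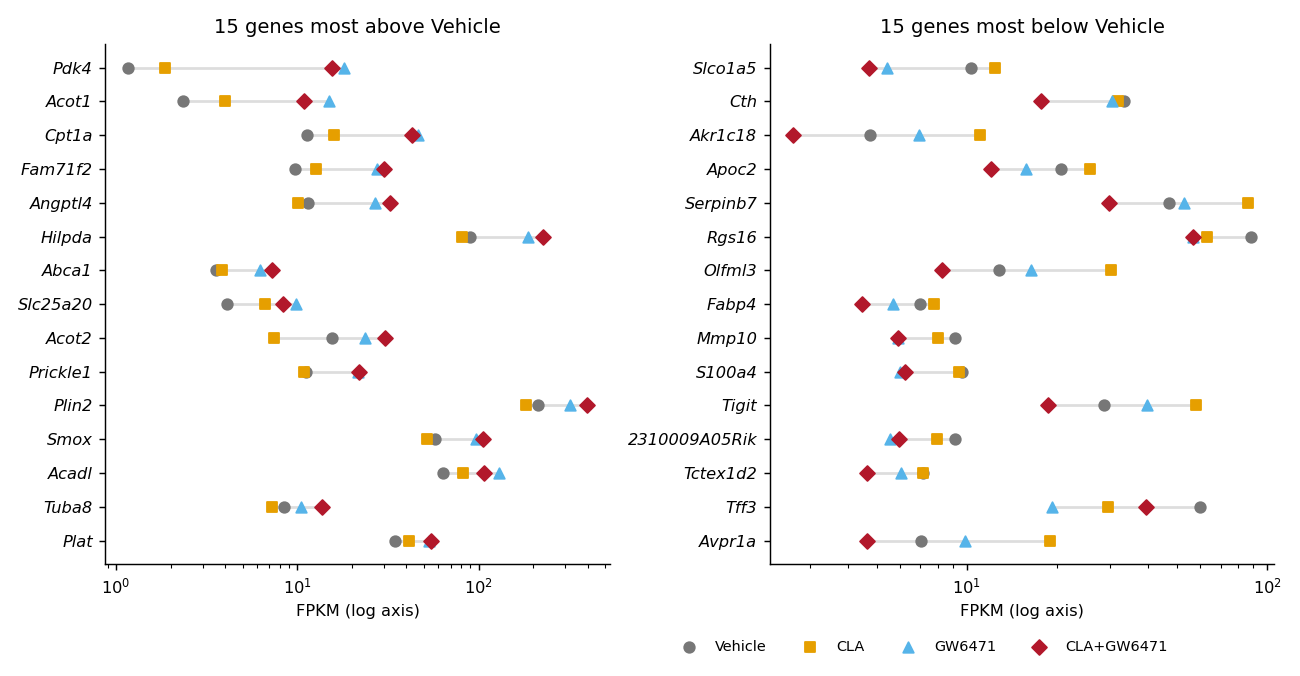
FPKM (horizontal log axis) of the 15 genes most above (left) and the 15 most below Vehicle (right) in CLA+GW6471, 1 point per library. In all 15 genes on the left the triangles (GW6471) and diamonds (CLA+GW6471) lie to the right of the circles (Vehicle) and squares (CLA), and on the right CLA+GW6471 is the lowest library for 11 of 15.

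The ratios below Vehicle were smaller in size. Slco1a5, an organic anion transporter with close paralogs, had 10.32 FPKM in Vehicle, 12.36 with CLA, 5.4 with GW6471 and 4.73 with both, a log2 ratio of -1.11 (-1.36 to -0.90). Cth, the cystathionine gamma-lyase that makes cysteine, had 33.24, 31.94, 30.35 and 17.66 FPKM, a log2 ratio of -0.91 (-1.06 to -0.77). It was near its Vehicle level in each single treatment and lower in the combination. Apoc2, the apolipoprotein that activates lipoprotein lipase, had 20.57, 25.78, 15.79 and 12.04 FPKM, a log2 ratio of -0.77 (-1.06 to -0.49).

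A further group was high in CLA and lowest in CLA+GW6471. The steroid dehydrogenase gene Akr1c18, which has close paralogs, had 4.75 FPKM in Vehicle, 11.04 with CLA, 6.93 with GW6471 and 2.63 with both. Serpinb7, a serine protease inhibitor, had 47.12, 86.23, 52.93 and 29.82 FPKM in that order. Avpr1a, the vasopressin receptor of hepatocytes, had 7.04, 18.88, 9.87 and 4.64 FPKM. Tigit and Olfml3 had the same order of the 4 libraries as these 3 genes, with log2 ratios of CLA+GW6471 to Vehicle of -0.62 and -0.63. Of the 15 genes most below Vehicle, 9 had both libraries labelled with GW6471 below both without it, an order that 10.8% of all genes had. The choice of these 15 fixed that CLA+GW6471 was below Vehicle, so the count is a description. The 6 others were Akr1c18, Serpinb7, Olfml3, Tigit, Tff3 and Avpr1a. Tff3, a trefoil peptide of mucosal epithelia, had 59.8 FPKM in Vehicle, 29.46 with CLA, 19.2 with GW6471 and 39.46 with both, so the combination lay between Vehicle and both single treatments. Rgs16, a regulator of G protein signalling, had 88.73, 63.15, 56.7 and 56.82 FPKM. Fabp4, the adipocyte fatty acid binding protein and the only adipocyte marker at 1 FPKM or more, had 6.97, 7.76, 5.68 and 4.47 FPKM.

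Genes with a mean below 5 FPKM made up the rest of the 2-fold calls. Klf11, a Krüppel-like transcription factor, had 1.98 FPKM in Vehicle, 1.63 with CLA, 6.58 with GW6471 and 5.53 with both, a log2 ratio of 1.44 (1.21 to 1.76). Moap1 had a log2 ratio of 1.48 (1.12 to 2.13), and the short genes Pet117, Hist2h3c2 and Hist1h2ao had 3.09, 2.44 and 1.21, where replication-dependent histone genes have near-identical copies. Gm10058 was listed at 0 in Vehicle and at 3.53 FPKM in CLA+GW6471. On the lower side, the prostaglandin dehydrogenase Hpgd had 2.33 FPKM in Vehicle, 7.45 with CLA, 2.01 with GW6471 and 1.01 with both, and the glycine methyltransferase Gnmt had 1.3, 1.83, 0.88 and 0.49 FPKM. The cytochrome P450 gene Cyp2c68, with close paralogs, had 1.37, 4.46, 1.66 and 0.5 FPKM.

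Among the hand-made pathway lists, which were chosen with earlier results of these data known, the PPARα targets had the highest median. Of 31 targets listed, 21 were in the comparison. Their median log2 ratio was 0.29, against 0.00 over all genes, and 8 of 21 were higher and 0 lower at 1.5-fold, against 0.512% and 0.628% of all genes. The 8 were Pdk4, Acot1, Cpt1a, Angptl4, Slc25a20, Acot2, Plin2 and Acadl, all among the genes described above, and in each of the 8, which were chosen for being above Vehicle, both libraries labelled with GW6471 were above both without it. Over the 21 targets this order held for 11, the reverse for 1, and the libraries overlapped for 9, against 9.88% above and 10.8% below over all genes. The same list had a median of 0.37 in CLA and 0.58 in GW6471 against the shared Vehicle library, with 6 higher and 2 lower in CLA (7.33% and 4.95% of all genes) and 10 higher and 1 lower in GW6471 (3.29% and 2.1%). The targets that passed the limit in the libraries labelled with the PPARα antagonist thus lay almost all above Vehicle, and no gene in the table checks that label. The Reactome set for regulation of lipid metabolism by PPARα, which holds coregulators such as Ncor1 and Med1, had a median of 0.09 over 17 genes. In that set 0 genes passed 1.5-fold in either direction in CLA+GW6471, near the background of 0.512% and 0.628%.

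The other 13 targets were closer to Vehicle. Acadvl, the very long-chain acyl-CoA dehydrogenase, had 19.93 FPKM in Vehicle and 27.87 in CLA+GW6471, a log2 ratio of 0.48 (0.35 to 0.62). The thiolase gene Acaa2 had 19.93 and 27.13 FPKM, a log2 ratio of 0.44. Acsl1, the long-chain acyl-CoA synthetase, had 34.92 FPKM in Vehicle, 74.1 with CLA, 59.83 with GW6471 and 34 with both, so it was higher in both single treatments and at its Vehicle level in the combination. Cidec, a droplet fusion protein, had 5.19, 1.69, 2.32 and 4.85 FPKM, so it was lower in both single treatments and near its Vehicle level in the combination. The 10 targets under 1 FPKM included Cyp4a10, Cd36 and Fgf21.

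**Figure D4:**
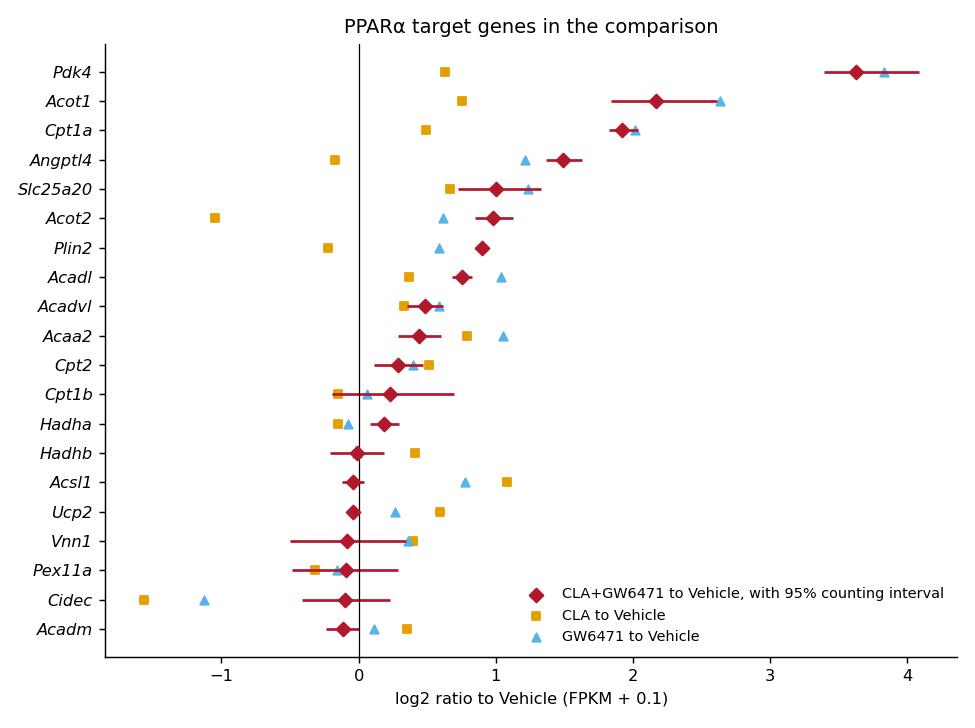
Log2 ratio to Vehicle (horizontal axis, FPKM with 0.1 added) of 20 of the 21 PPARα targets in the comparison, with red diamonds for CLA+GW6471 and their 95% counting intervals, squares for CLA and triangles for GW6471. Pdk4, Acot1, Cpt1a and Angptl4 stand to the right at 1.49 to 3.62, and Acadm is the lowest at -0.11.

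The receptors themselves were as follows. Ppara was listed at 0.15 FPKM in Vehicle, 0.11 with CLA, 0.06 with GW6471 and 0.07 with both, too low to compare. Ppard, which shares many targets with PPARα, had 24.56, 19.76, 22.27 and 27.27 FPKM, a log2 ratio of 0.15, and Pparg had 8.06, 10.74, 9.28 and 9.68 FPKM, a log2 ratio of 0.26. Among the 18 receptors, RXR partners and coregulators, 0 passed 1.5-fold, near the background of 0.512% and 0.628%, and the largest ratio was that of Lpin2, a phosphatidate phosphatase, at 0.40.

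In the hand-made list of mitochondrial beta-oxidation, which includes the carnitine shuttle, the median log2 ratio was 0.20 over 24 genes. Of these, 18 were above 0 (5053 of 10355 over all genes), and the 3 higher at 1.5-fold were Cpt1a, Slc25a20 and Acadl, described above (0.512% of all genes), with 0 lower. The Reactome set for mitochondrial fatty acid beta-oxidation, with 15 genes, had a median of -0.01 with 1 higher and 0 lower, so the value depends on which genes are counted. Etfdh and Etfb, which pass electrons from the dehydrogenases to ubiquinone, had ratios of 0.57 and 0.49. In peroxisomal lipid metabolism and biogenesis the median was -0.07 over 29 genes and 0 passed in either direction. In the lipid droplet list, Hilpda and Plin2 were higher and 0 of 11 genes were lower, with a median of 0.00. In the lipogenesis list, Dgat2, which makes triglyceride, was the only 1 of 19 genes past 1.5-fold, with 1.65 FPKM in Vehicle, 1.35 with CLA, 1.93 with GW6471 and 3.28 with both. Fatty acid synthase (Fasn) had 32.01, 52.43, 40.69 and 27.07 FPKM.

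Several lists with medians above 0 in both single treatments had medians near 0 in the combination. Cholesterol biosynthesis had the highest median in CLA. The median log2 ratio of its 26 genes was 0.89 with CLA and 0.63 with GW6471, with 19 and 14 genes higher at 1.5-fold (7.33% and 3.29% of all genes). In CLA+GW6471 the median was -0.07 and 0 genes passed the limit, which with 0.512% and 0.628% of all genes past it is near the background. Hmgcs1, the cytosolic synthase at the head of the pathway, had 26.76 FPKM in Vehicle, 56.68 with CLA, 46.88 with GW6471 and 23 with both. Of the 26 genes, 20 were below their Vehicle level in the combination (5255 of 10355 over all genes), and the lowest ratio was that of Acat2 at -0.48.

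The hypoxia list followed the same order, with medians of 0.76 (CLA), 0.62 (GW6471) and 0.02 (both) over 19 genes. Its members higher at 1.5-fold numbered 10, 12 and 0, against 7.33%, 3.29% and 0.512% of all genes. Pdk1, a hypoxia-induced kinase of the same family as Pdk4, had 6.31 FPKM in Vehicle, 15.59 with CLA, 10.41 with GW6471 and 5.12 with both, unlike Pdk4. Glycolysis had medians of 0.52, 0.22 and -0.05 over 19 genes, with Aldoc at 4.98, 25.7, 13.51 and 3.76 FPKM. NRF2 and glutathione genes had medians of 0.43, 0.26 and -0.02 over 26 genes, and the AHR battery 0.79, 0.55 and 0.04 over 5. Cyp1a1, the best-known AHR target, had 22.08 FPKM in Vehicle, 76.07 with CLA, 74.74 with GW6471 and 22.08 again with both. The summed level of the hepatocyte markers, given above and mostly Apoe and Alb, had the same order as these lists, and its part in the medians was not tested. All of these medians share the Vehicle library.

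**Figure D5:**
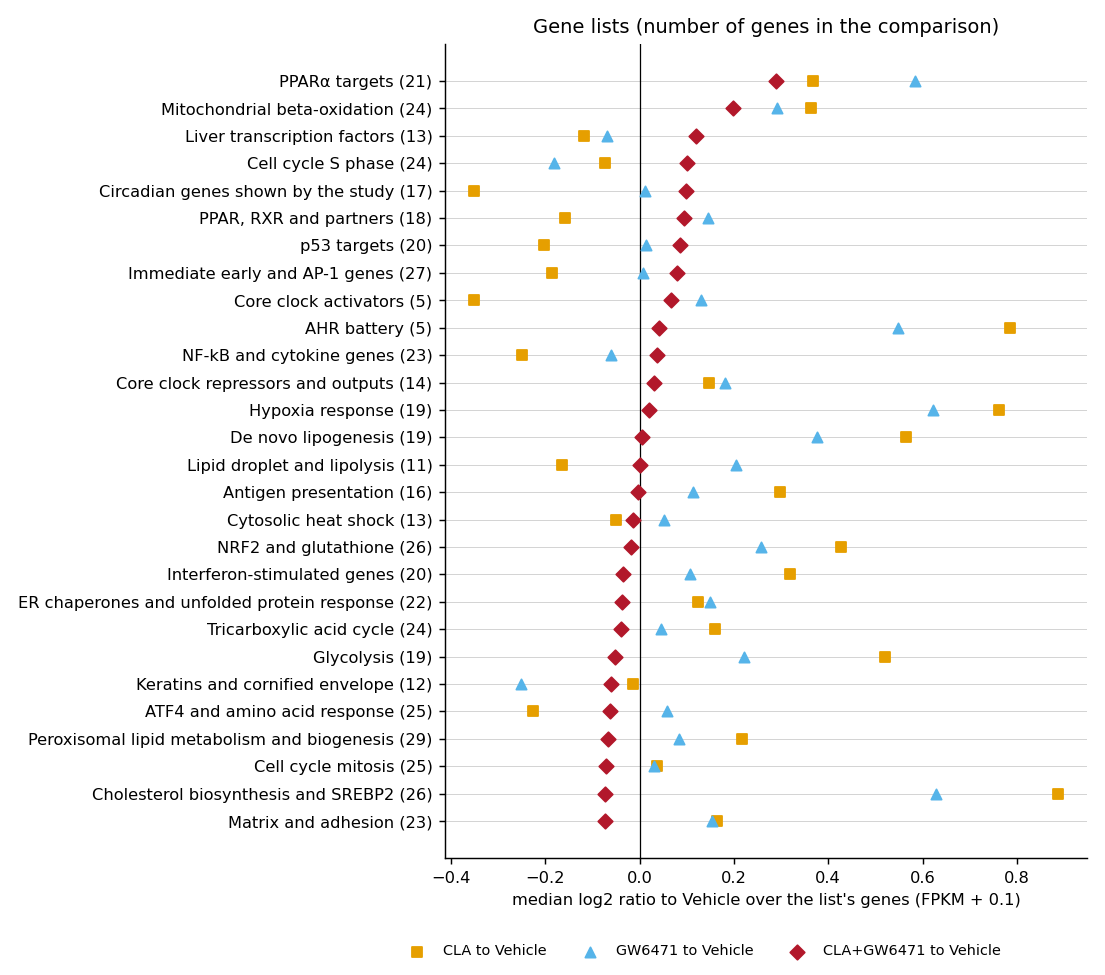
Median log2 ratio to Vehicle (horizontal axis, FPKM with 0.1 added) of 28 gene lists in CLA (squares), GW6471 (triangles) and CLA+GW6471 (diamonds), with the number of genes in each list in brackets. The diamonds lie between -0.07 and 0.29, with PPARα targets highest, while the squares of cholesterol biosynthesis and hypoxia reach 0.89 and 0.76.

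The clock genes, which were the study's main subject, were close to Vehicle in the combination. Nr1d1, the gene of the repressor REV-ERBα, had 17.97 FPKM in Vehicle, 22.83 with CLA, 22.71 with GW6471 and 23.29 with both, a log2 ratio of 0.37 (0.25 to 0.50). It was alike in all 3 treated libraries. Cry1, a repressor of the core loop, had 10.71, 4.63, 6.71 and 13.05 FPKM, and Clock, the partner of BMAL1, had 5.94, 3.54, 5.99 and 6.8 FPKM. In both, CLA was the lowest library and CLA+GW6471 the highest, with ratios of 0.28 and 0.19. Arntl, which encodes BMAL1, had 19.83, 11.59, 17.12 and 21.01 FPKM, a ratio of 0.08, and Per1 had 14.13, 9.91, 14.61 and 15.14 FPKM, a ratio of 0.10. The medians of the 5 activators and of the 14 repressors and outputs were 0.07 and 0.03, and 0 of them passed 1.5-fold, near the background of 0.512% and 0.628%. The study displayed 20 circadian genes for their changes with CLA. How they were chosen is not stated, so the list is not taken as independent of these samples. Of the 20 genes, 17 reached the limit of 1 FPKM. The median ratio of these 17 was 0.10 in CLA+GW6471 and -0.35 in CLA, and 17 of 17 were above 0 in the combination, as were 5053 of all 10355 genes. The Reactome circadian clock set of 23 genes had medians of 0.07 in CLA+GW6471 and 0.05 in CLA, so the CLA value depends on which genes are counted. Of the 3 displayed genes under the limit, Ppara and Bhlhe41 had lower values in CLA+GW6471 than in Vehicle and Per2 a higher one. The counting intervals of these 3 included equality, so their directions are not settled.

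In the stress, immune and growth lists at most 1 gene per list passed 1.5-fold (over all genes 0.512% were higher and 0.628% lower), too few to read as a result about a list. The NF-kB and cytokine list had 1 of 23 higher, the growth factor Csf2 at 6.2 FPKM in Vehicle and 9.58 in CLA+GW6471. The ATF4 list had 1 of 25 lower, Cth, and the keratin and cornified envelope list 1 of 12 lower, Tff3. In the immediate early list of 27 genes the largest ratio was that of Klf10 at 0.55, with 49.69 FPKM in Vehicle, 51.7 with CLA, 72.59 with GW6471 and 72.9 with both. Among p53 targets, Cdkn1a, the cell cycle inhibitor p21, had 306.85, 188.52, 279.66 and 398.43 FPKM, and Gdf15 had 219.1, 143.9, 257.55 and 294.94 FPKM. Neither reached 1.5-fold. The lists for interferon, antigen presentation, the unfolded protein response, heat shock, S phase, mitosis, matrix, the tricarboxylic acid cycle and liver transcription factors had 0 genes past the limit, with medians from -0.07 to 0.12. The Reactome set for extracellular matrix organization held 2 of 105 genes lower at 1.5-fold and 0 higher, so the matrix count depends on which genes are listed.

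Across 603 Reactome pathways of 15 to 200 genes, medians in CLA+GW6471 ran from -0.22 to 0.10, with an SD of 0.037, against 0.119 in CLA and 0.090 in GW6471. A median beyond 0.3 in size was reached by 0 pathways in the combination, 17 in CLA and 4 in GW6471. The lowest was branched-chain amino acid catabolism, in which 13 of 15 genes were below their Vehicle level (5255 of 10355 over all genes), a count that follows in part from its choice as the lowest median. Ivd, the isovaleryl-CoA dehydrogenase, had 7.48 FPKM in Vehicle and 5.68 in CLA+GW6471, and Bckdhb, a subunit of the branched-chain ketoacid dehydrogenase, had 7.16 and 5.45 FPKM. Fatty acid, triacylglycerol and ketone body metabolism, with 75 genes, held the most higher genes at 1.5-fold, 4 of them (0.512% of all genes), with 0 lower and a median of 0.04. Arachidonic acid metabolism, with 21 genes, held 3 lower (Cyp2c68, Hpgd and Akr1c18, against 0.628% of all genes) and 0 higher, with a median of -0.10.

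AGGTCA, the repeat unit of PPAR elements, was searched on both strands in the 300 bases around the start (250 before and 50 after) of the 8414 genes with a RefSeq promoter. It was present in 11.8% of all of them, in 4 of 15 promoters of genes at least 2-fold higher (26.7%) and in 2 of 10 of those at least 2-fold lower (20%). At 1.5-fold the shares were 18.6% on the higher and 20.4% on the lower side, so the motif did not separate the directions. CCAATCA was in 11.0% of all promoters and in 6 of 15 of the 2-fold higher genes (40%) and 2 of 10 of the 2-fold lower genes (20%), while at 1.5-fold the shares were 18.6% on the higher and 10.2% on the lower side. The 6 included Pdk4 and Cpt1a, whose copies stand in capitals above. Direct repeats of AGGTCA with a spacer of 1 base and at most 1 mismatch were then searched within 5000 bases of each gene's 5′ end in mm9 with the GENCODE vM1 annotation, a search chosen after the values were seen. They lay near 20.9% of all genes with a window, 9 of 46 genes higher at 1.5-fold (19.6%) and 10 of 63 lower (15.9%). They also lay near 1 of 12 higher at 2-fold (8.33%) and 6 of 21 PPARα targets (28.6%), where Hadha and Hadhb share 1 site. Among the named genes they lay near 2 of 14 above Vehicle (14.3%) and 4 of 14 below it (28.6%), namely Apoc2, Cth, Rgs16 and Tigit. The sites were thus no more frequent near the higher genes than near all genes. The sites below, with both repeats in capitals, are those of the 2 genes among the 15 most above Vehicle that had one, with Acadvl from the targets and Apoc2 from the lower genes for comparison. That of Fam71f2 lies in an intron at chr6:29229711-29229723 on the minus strand, 124 bases downstream of the 5′ end. That of Plat lies in intergenic sequence at chr8:23863746-23863758 on the plus strand, 4464 bases upstream. That of Acadvl lies in an exon at chr11:69828850-69828862 on the minus strand, 57 bases downstream. That of Apoc2, 1 of its 2 sites, lies in an intron at chr7:20263400-20263412 on the minus strand, 3366 bases downstream, and its letters stand in the promoter printed above, where only the exact AGGTCA is in capitals. A match describes the letters only and does not show binding.
Fam71f2 site: atgagtggAGGTCAgAGGACAggcctcag
Plat site: tgagaacgAGGTAAaAGGTCAtctttata
Acadvl site: aagagaagAGGTCAgTGGTCAagacttcg
Apoc2 site: ttctcttgAGGCCAgAGGTCAaccttccg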

How the data were processed

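Liver RNA-seq libraries of 4 groups, 1 library each, were grouped by their labels. Per the study's methods and processing notes, reads were mapped to mm9 with BWA and Bowtie and quantified with Cufflinks. Neither versions nor the filter behind the 15500 listed genes are given in the sources used here. FPKM were deposited by the authors with 2 decimals, and these values were used unchanged. The log2 ratios of CLA+GW6471 to Vehicle used FPKM with 0.1 added, over genes with a mean of at least 1 FPKM, and called genes at 1.5-fold and 2-fold. The fold change of weakly expressed genes is understated by this addition. A value of 0, given for 2749 genes in at least 1 library, can be a failed estimate. Entrez numbers stand in for 107 genes without a symbol and 25 whose symbols had become dates.

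Without deposited counts a count model could not be used. Depth was estimated from the step between low values of 603 short single-transcript genes (under 1000 nt), at 18850000 to 19295000 reads per library, a ratio of 1.02. Counting intervals rest on these estimates and on GENCODE vM1 transcript lengths, and are approximate. The step was tested on simulated data. Named genes were the 15 most above and the 15 most below Vehicle at a mean of at least 5 FPKM with a symbol, up to 4 genes per list by size of ratio, the clock and PPAR genes of the study, marker genes and genes next to the limits. Others (such as Klf11, Moap1, Hpgd, Gdf15 and members of Reactome pathways) were named after their values were seen. The values of a few genes are not reported here. The comparison, the gene lists and the rules were chosen with earlier results of these data known. Python 3.11.15 with pandas 2.3.3 and scipy 1.17.1 and R 4.3.3 were used. The alternatives were a pseudocount of 0.01 or 1, no filter, a mean of at least 5 FPKM, scaling to a common FPKM sum or by median of ratios, and leaving out genes with a 0.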

Additional observations from a re-analysis of the deposited data

How the results depend on the processing

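No list median of at least 0.1 in size and no named gene past 1.5-fold changed sign under an alternative. Of 210 list medians under the 7 alternatives, 206 moved by less than 0.1 (log2). Of 1003 values of 148 named genes, 996 stayed within their counting interval (or within 0.1 where there was none). Alternatives that change only which genes are kept cannot move a gene's own ratio. For single genes, only the pseudocounts and the scalings could therefore change a value. The counts depended on how weakly expressed genes were treated. With a pseudocount of 1, 28 genes were higher and 18 lower at 1.5-fold, and 11 higher and 0 lower at 2-fold. With no filter on level, 552 were higher and 544 lower at 1.5-fold, 149 higher and 161 lower at 2-fold, and the SD of the log2 ratios was 0.329. With a mean of at least 5 FPKM, 19 were higher and 16 lower at 1.5-fold, and 8 higher and 1 lower at 2-fold. That filter also gave a median of 0.48 for the PPARα targets and 0.14 for the lipid droplet list. Without a filter the median of the hepatocyte markers was 0.00 in place of -0.13, and that of the cholangiocyte markers turned from 0.06 to -0.26. Of the 7 named values that moved, 3 did so with a pseudocount of 1, where Pdk4 had a log2 ratio of 2.93, Acot1 1.83 and Abca1 0.86. Scaling shifted all ratios by at most 0.02.

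The spread between animals is unknown with 1 library per group. Leaving out a library was not possible. No paired analysis was possible because each group holds a single library. Depth limits the values under 5 FPKM most, and intervals for genes such as Lst1, Glod5 and Hist1h2ao reach close to 0.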
